A study of Mus musculus with 3 samples.

Results

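The dopamine and adenosine receptor genes comprised 7 protein-coding genes, Drd1, Drd2, Drd3, Drd4, Drd5, Adora1 and Adora2a, and they were examined for chromatin occupancy by the thyroid hormone receptor TRα1 in mouse striatum. A TRα1 binding site, hereafter a site, was attributed to a gene when its summit, the base with the highest fragment coverage, lay inside the gene or within 30 kb of its 5′ end (GENCODE annotation, GRCm38). This rule attributed 16 of the 23988 sites of the series to these genes. Of the 7 genes, 4 had at least 1 site: Adora1 had 7 sites, Drd1 and Drd2 had 4 each, and Drd4 had 1. Drd3, Drd5 and Adora2a had 0 sites.

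The chromatin came from freshly dissected striatum of adult male C57BL/6J mice (8 weeks old, euthyroid and without treatment) in which the GABAergic neurons expressed TRα1 fused to a GS tag, an affinity tag. The series held 2 ChIP libraries, made from chromatin crosslinked with disuccinimidyl glutarate and then formaldehyde, and 1 input library, and all shared this genotype. The line that drove the expression of the tagged receptor was not given in the sources used here, and no library of untagged mice was among the 3. The processed data were 1 list of sites called with MACS for the whole series, without values for single libraries. No test over replicates could therefore be made. All intervals below are exact 95% intervals for counting error alone, and the fragments behind them are not shown to be independent molecules. RNA was not among the measurements, so neither the cell type given in the labels nor the expression of the receptors could be checked.

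TRα1 is a nuclear receptor that occupies DNA, usually with the retinoid X receptor as a partner, and activates transcription when it binds the thyroid hormone T3. Its best known response element, the DR4, consists of 2 copies of the hexamer AGGTCA, each called a half-site, in the same orientation and 4 bases apart. The striatum is made up mostly of GABAergic projection neurons of 2 kinds. Those of the direct pathway carry the D1 dopamine receptor (Drd1), and those of the indirect pathway carry the D2 dopamine receptor (Drd2) together with the adenosine receptor encoded by Adora2a. D1-like receptors (Drd1, Drd5) and Adora2a act through stimulatory G proteins and raise cyclic AMP, whereas D2-like receptors (Drd2, Drd3, Drd4) and the A1 adenosine receptor (Adora1) act through inhibitory G proteins. Both kinds of neuron were GABAergic and were immunoprecipitated together, so a site could not be attributed to one of them.

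The sequences that bear on TRα1 binding at these genes are given first. A DR4 match was an element on either strand that differed from the consensus at no more than 2 of its 12 half-site positions and lay within 100 bp of the summit. Such a match was present at 4 of the 16 sites, 1 at Drd1 and 3 at Adora1, and 1 further element lay in an Adora1 site at 374 bp from its summit. They are shown, with 12 bases on each side, because they are the only elements of this kind that lay within a site of the receptor genes. Capitals mark the half-sites, and each element is read on its own strand.
Drd1 at +9.0 kb: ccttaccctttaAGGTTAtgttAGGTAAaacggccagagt
Adora1 at +1.33 kb: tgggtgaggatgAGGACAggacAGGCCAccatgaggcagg
Adora1 at +3.21 kb: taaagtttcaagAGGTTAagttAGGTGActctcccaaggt
Adora1 at +8.07 kb: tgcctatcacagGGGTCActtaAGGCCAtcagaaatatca
Adora1 at +10.8 kb: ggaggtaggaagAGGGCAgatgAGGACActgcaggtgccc
The Drd1 element lay at chr13:54046697-54046712 on the minus strand. The Adora1 elements lay on the plus strand, opposite to the gene, at chr1:134234093-134234108, chr1:134232209-134232224, chr1:134227354-134227369 and chr1:134224597-134224612. Each of the 4 elements near a summit departed from the consensus by 1 base in each half-site, and their centres lay 31, 33, 75 and 13 bp from the summits, in the order Drd1 and then Adora1 from its 5′ end.

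The elements closest to the consensus lay elsewhere. Of the 62 DR4 matches in the stretches searched around the 7 genes, 3 had a single mismatch, 1 near Drd5 and 2 near Adora1, and none of the 3 lay in a site. They are shown for comparison with the elements that lay in a site.
Drd5 at -23.1 kb: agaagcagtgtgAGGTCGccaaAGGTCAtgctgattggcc
Adora1 at +4.81 kb: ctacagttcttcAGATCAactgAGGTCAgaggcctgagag
Adora1 at -27.7 kb: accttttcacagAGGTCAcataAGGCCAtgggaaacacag
They were located at chr5:38296226-38296241 (minus strand), chr1:134230610-134230625 (minus strand) and chr1:134263146-134263161 (plus strand). The intronic Adora1 element was 1.63 kb from the nearest summit and the upstream one 18.8 kb, and the Drd5 element had no summit within 100 kb. At the upstream Adora1 element 11 of the 16 bases were annotated as repeats, and at the other two 0 were.

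The bases around the summit of the site with the highest fold enrichment at Drd1, Drd2, Drd4 and Adora1, and of the Drd1 site within 1 kb of the 5′ end, are shown on the strand of the gene, since these stretches had the highest fold enrichment at their gene or lay next to its 5′ end. Each stretch is 120 bases long and is centred on the summit. Capitals mark the half-sites of DR4-like elements with up to 3 mismatches, 2 at Drd2 and 1 at Adora1, which here read as TGACCT-like half-sites because the elements lie on the opposite strand.
Drd1 at -22.4 kb: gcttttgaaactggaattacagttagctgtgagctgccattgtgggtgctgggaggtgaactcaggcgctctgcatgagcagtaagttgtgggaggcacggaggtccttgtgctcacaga
Drd1 at +0.532 kb: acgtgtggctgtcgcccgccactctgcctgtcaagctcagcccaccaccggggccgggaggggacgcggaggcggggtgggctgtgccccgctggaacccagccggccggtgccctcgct
Drd2 at +7.27 kb: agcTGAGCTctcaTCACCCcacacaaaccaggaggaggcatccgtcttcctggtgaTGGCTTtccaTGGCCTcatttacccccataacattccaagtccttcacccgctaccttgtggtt
Drd4 at +0.221 kb: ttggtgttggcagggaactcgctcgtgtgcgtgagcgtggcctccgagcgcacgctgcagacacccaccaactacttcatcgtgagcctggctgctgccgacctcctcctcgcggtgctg
Adora1 at +3.18 kb: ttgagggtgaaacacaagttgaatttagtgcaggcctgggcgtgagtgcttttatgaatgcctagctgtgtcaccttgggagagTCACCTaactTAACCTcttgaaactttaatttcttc
Their positions were chr13:54078074-54078193 (minus), chr13:54055113-54055232 (minus), chr9:49347833-49347952 (plus), chr7:141292167-141292286 (plus) and chr1:134232189-134232308 (minus). The stretches near the 5′ ends of Drd1 and Drd4 held 12 and 11 CpG dinucleotides in 120 bases, with 75.8% and 65.0% G and C, against 2, 2 and 1 CpG and 53.3%, 53.3% and 43.3% in the upstream Drd1, the Drd2 and the Adora1 stretches. The Drd4 stretch was coding sequence.

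A site was found at 4 of 7 receptor genes (57.1%, interval 18.4 to 90.1%) and at 57.7% of the 21938 protein-coding genes. The sites were uneven among the members: Drd1, Drd2 and Adora1 had at least 4 sites, as had 10.9% of protein-coding genes, and Adora1 alone had 7, reached by 2.64% of them. The count of Drd1 was 2 within 10 kb of the 5′ end, and that of Drd2 was 2 when sites inside the gene but beyond 30 kb were left out. Adora1 thereby held 10.6 sites per 100 kb of the stretch searched, a density above that of 99.3% of protein-coding genes, whose median was 1.21. The densities of Drd1, Drd2 and Drd4 were 6.67, 4.1 and 1.67 sites per 100 kb. A summit within 1 kb of the 5′ end was found at 2 of the 7 genes, Drd1 and Drd4, and at 23.2% of protein-coding genes. Among the 16 sites, 9 lay in an intron, 1 in a coding exon, 4 upstream of the gene and 2 beyond its 3′ end.

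**Figure D1:**
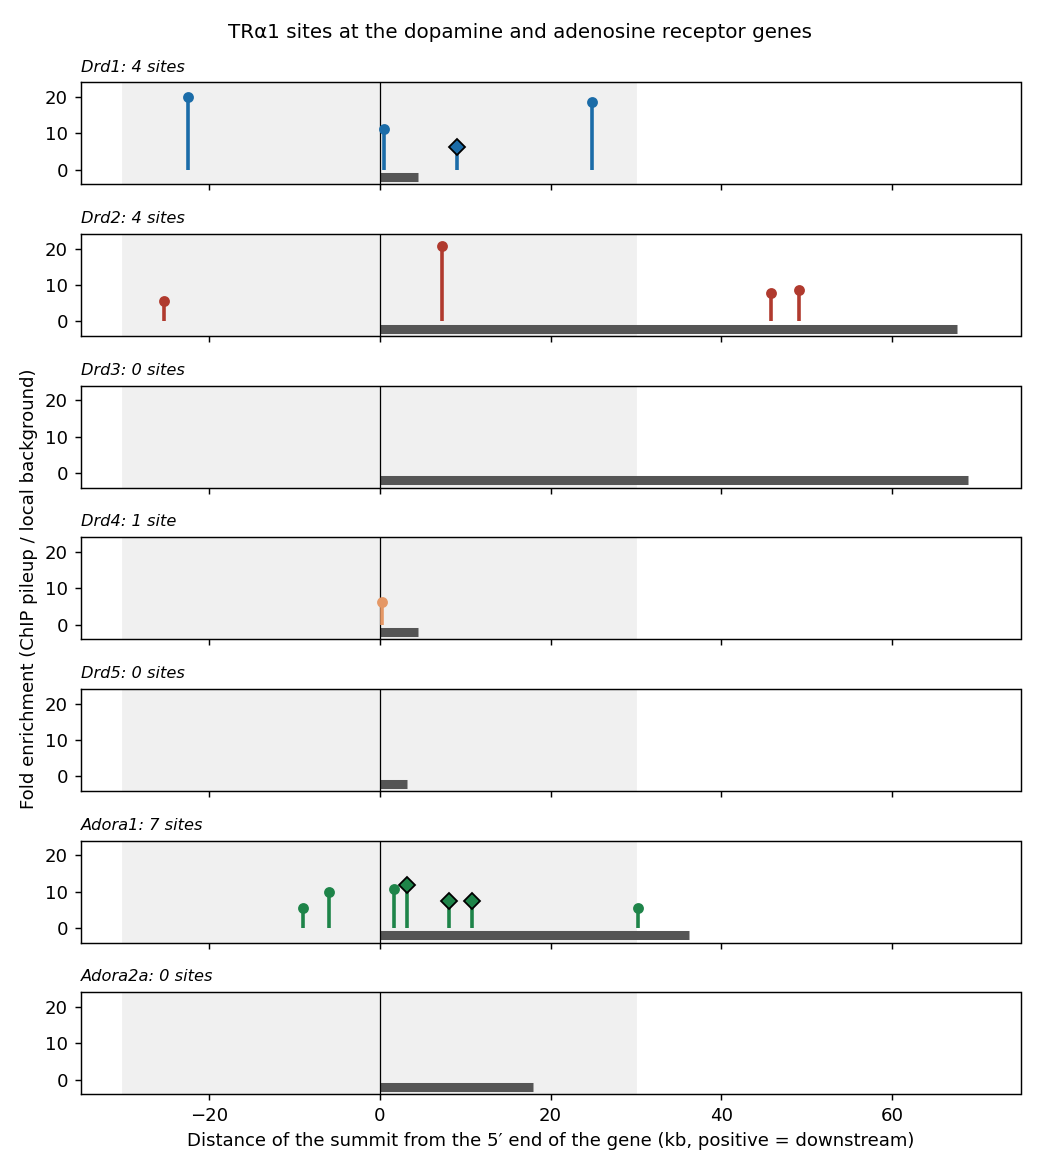
Position (kb from the 5′ end of the gene, positive values downstream) and fold enrichment of each TRα1 site at the 7 genes. Dark bars under the zero line are the genes, grey shading is the 30 kb on each side of the 5′ end, and diamonds are the 4 sites with a DR4 match near the summit. Adora1 carries 7 sites of at most 11.9-fold, the strongest Drd1 and Drd2 sites reach 20.1 and 20.8, and Drd3, Drd5 and Adora2a carry none.

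The strength of a site is given by its pileup, the number of ChIP fragments that cover the summit, and by its fold enrichment, this pileup divided by the background expected there, each raised by 1. The median fold enrichment of the 16 sites was 8.18 (range 5.47 to 20.8), beside 7.4 over all sites (lower and upper quartiles 5.95 and 11.2, maximum 123). The fold enrichment was above the median of all sites at 11 of 16 sites. The median pileup was 21.5 fragments, beside 21 over all sites. A score of at least 200, where the score is 10 times the −log10 of the q value, was reached by 6 of the 16 sites and by 31.4% of all sites. The highest values belonged to 2 sites of Drd1 and 1 of Drd2, at 18.6 to 20.8-fold. The local background was at the lowest value of the list, 1.69 fragments, at 11 of the 16 sites and at 42.3% of all sites. At these 11 sites the order of the fold enrichments was that of the pileups.

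**Figure D2:**
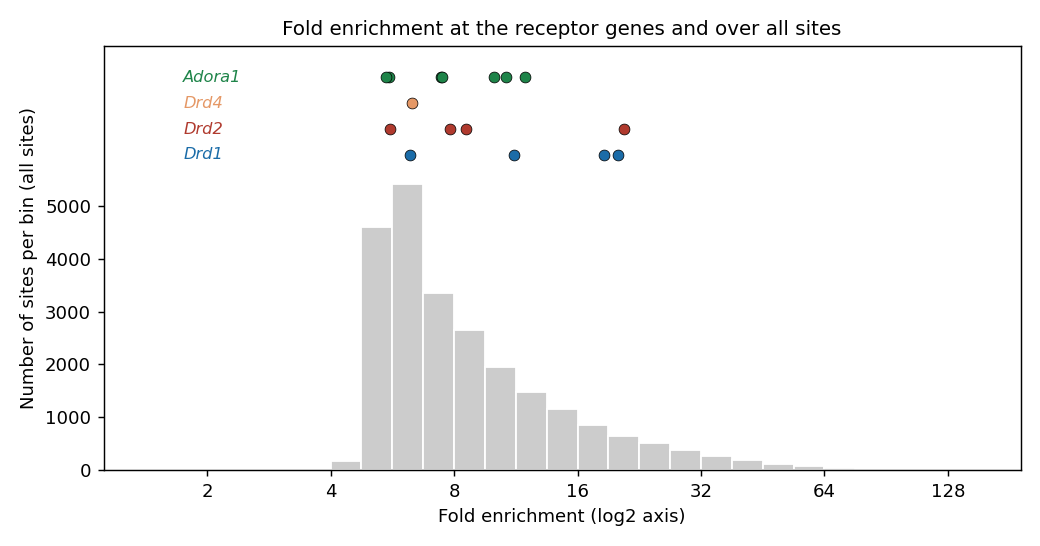
Fold enrichment (log2 axis) of the sites at Drd1, Drd2, Drd4 and Adora1 (coloured points, one row per gene) above the distribution of all 23988 sites (grey bars, number of sites per bin). All 16 points lie between 5.47 and 20.8, and the highest points belong to Drd2 and Drd1.

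Drd1, which encodes the D1 receptor of direct pathway neurons, had a site at its 5′ end. Its 3 other sites lay outside the gene, upstream or beyond the 3′ end. Drd1 lies at chr13:54051183-54055705 on the minus strand. The strongest of its sites was 22.4 kb upstream of the 5′ end, at chr13:54077704-54078333, where the pileup was 53 fragments (interval 39.7 to 69.3) and the fold enrichment 20.1, higher than at 91.2% of all sites. The 5′ end of Sfxn1, which encodes a mitochondrial serine transporter, was nearer to this summit, at 6265 bp. Of the bases within 100 bp of this summit, 48.3% were annotated as repeats. Nearly as strong was the site 24.8 kb downstream of the 5′ end, beyond the 3′ end of the gene (chr13:54030463-54031118), with 49 fragments (36.3 to 64.8) and a fold enrichment of 18.6. The intervals of these 2 flanking sites overlapped, so their order was not resolved.

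The Drd1 site at the 5′ end lay at chr13:54054760-54055831, with its summit in an intron 532 bp downstream of the 5′ end. It was the longest of the 16 sites (1072 bp, longer than 97.0% of all sites) and the richest in G and C within 100 bp of the summit (71.6%). It reached 29 fragments (19.4 to 41.6) and a fold enrichment of 11.2. RefSeq gives 2 starts of transcription for Drd1, and the site overlapped the promoter of both, with the summit 485 bp downstream of one and 393 bp upstream of the other. The remaining Drd1 site, 9.03 kb downstream of the 5′ end and beyond the 3′ end of the gene (chr13:54046466-54046959), was the weakest of the 4, with 20 fragments (12.2 to 30.9) and a fold enrichment of 6.25. It was also the only Drd1 site that held a DR4 match, the Drd1 element printed above. Its pileup interval lay entirely below those of both flanking sites and overlapped that of the site at the 5′ end.

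Drd2, the D2 receptor gene of indirect pathway neurons, carried the site with the highest pileup among the 7 genes, in an intron 7.27 kb downstream of the 5′ end. Drd2 spans chr9:49340627-49408177 on the plus strand, and this site was at chr9:49347664-49348122. Its pileup was 55 fragments (41.4 to 71.6) and its fold enrichment 20.8, higher than at 91.8% of all sites. The pileup interval overlapped those of both flanking Drd1 sites, so the order of these 3 sites was not resolved. The other Drd2 sites were weaker, with pileup intervals entirely below it. The pair of sites deeper in the gene, at 45.8 and 49.1 kb (chr9:49386189-49386719 and chr9:49389569-49389904), had 20 and 22 fragments (12.2 to 30.9 and 13.8 to 33.3) and fold enrichments of 7.81 and 8.55. Both were nearer to the 5′ end of Ankk1, which encodes a kinase-like protein, at 40618 and 37337 bp, than to that of Drd2. The site 25.2 kb upstream (chr9:49315335-49315565) had 14 fragments (7.65 to 23.5), a fold enrichment of 5.58 and the shortest length in the list, 231 bp.

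No Drd2 site held a DR4 match by the rule used. Within 100 bp of the summit, the strongest site held 2 elements with 3 mismatches, centred 3 and 50 bp from it, and the upstream site held 1. The site at 45.8 kb also held an element with 3 mismatches, but not within 100 bp of its summit. The element at the summit is shown with the one of the upstream site, with half-sites in capitals.
Drd2 at +7.27 kb, at the summit: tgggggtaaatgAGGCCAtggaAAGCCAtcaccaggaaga
Drd2 at -25.2 kb: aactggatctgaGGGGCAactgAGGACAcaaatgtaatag
They lay at chr9:49347889-49347904 on the minus strand and chr9:49315358-49315373 on the plus strand. The fewest mismatches near the summit were 3 at 25.1% of all sites.

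Drd4, which encodes a D2-like receptor, had a single weak site just downstream of its start. The gene lies at chr7:141292006-141296464 on the plus strand, and the site, at chr7:141292056-141292340, had its summit in a coding exon 221 bp downstream of the 5′ end and overlapped the promoter of the RefSeq start. Its pileup was 16 fragments (9.15 to 26.0) and its fold enrichment 6.32, higher than at 32.9% of all sites. Within 100 bp of the summit, its content of G and C was 67.7% and its ratio of observed to expected CpG 0.828, the highest of the 16 sites. A much stronger site, with a fold enrichment of 30.5, lay 32.5 kb upstream of the Drd4 5′ end, just outside the distance used, and the gene with the nearest 5′ end to it was Irf7, an interferon regulatory factor. Just inside this distance were the Drd2 site at 25.2 kb and the Drd1 site at 24.8 kb.

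Adora1, which encodes the widely expressed A1 adenosine receptor, had the most sites, 5 inside the gene and 2 upstream, and none of them exceeded 11.9-fold. The gene spans chr1:134199223-134235431 on the minus strand. The highest pileups were those of 2 intronic sites near the 5′ end, 33 fragments (22.7 to 46.3) at 1.71 kb (chr1:134233462-134234185) and 31 fragments (21.1 to 44.0) at 3.18 kb (chr1:134232024-134232473). Their fold enrichments came in the other order, 10.7 and 11.9, because the local background was 2.19 fragments at the first and 1.69 at the second. The site 5.94 kb upstream (chr1:134241150-134241551) followed with 26 fragments (17.0 to 38.1) and a fold enrichment of 10.

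The other 4 Adora1 sites had 14 to 21 fragments. Those in the intron at 8.14 and 10.8 kb (chr1:134227091-134227658 and chr1:134224004-134224890) had fold enrichments of 7.44 and 7.47, and the second was 887 bp long, more than 93.0% of all sites. The site 8.95 kb upstream (chr1:134244251-134244481) and the site 30.3 kb downstream of the 5′ end (chr1:134205093-134205346) were the weakest, with 18 and 14 fragments and fold enrichments of 5.54 and 5.47. The last of these lay inside the gene but nearer to the 5′ ends of Mybph, which encodes a myosin binding protein, and Chil1, a chitinase-like protein, the nearest of them 11725 bp away. The 7 pileup intervals of Adora1 overlapped one another, and the order of its sites was not tested. The promoters of its 2 RefSeq starts were not overlapped by a site, and the nearest summits were 1130 and 1731 bp downstream of these starts.

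**Figure D3:**
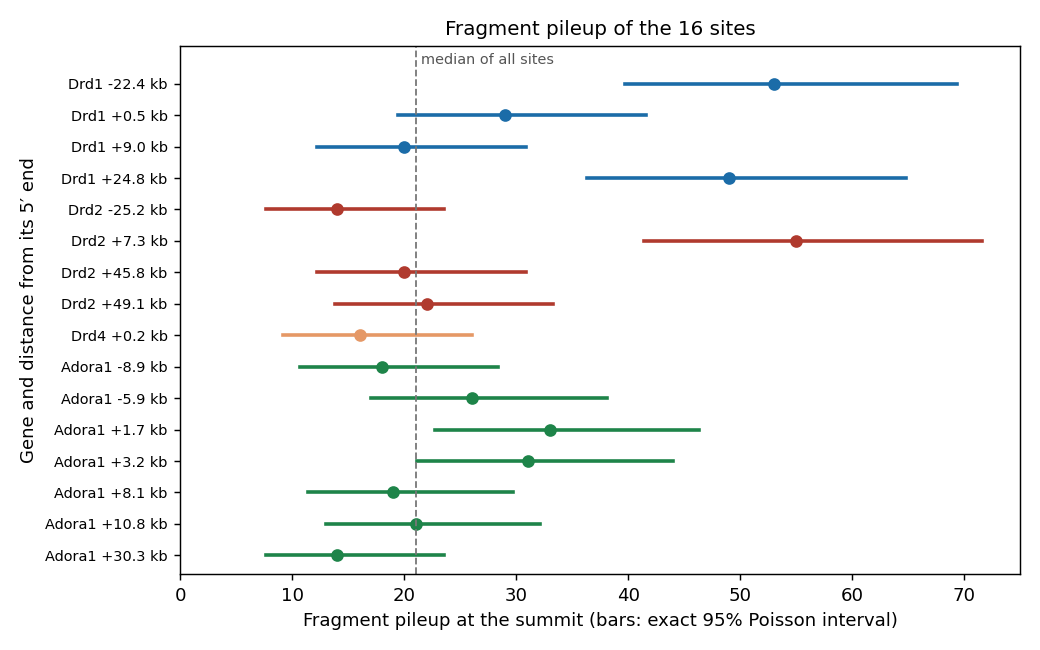
Number of ChIP fragments over the summit of each of the 16 sites (points) with exact 95% Poisson intervals (bars), which cover counting error only. The dashed line is the median of all sites, 21 fragments. Only 3 intervals, of Drd1 at -22.4 and +24.8 kb and Drd2 at +7.27 kb, lie wholly above 35 fragments.

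Drd3, Drd5 and Adora2a had no site in the stretch searched, 98.9 kb for Drd3 and 60 kb for each of the others, and no base of these stretches was unsequenced in the reference. Drd3, the D3 receptor gene, is best known from the ventral striatum and lies at chr16:43754026-43822932 on the plus strand. Its nearest summit was 73.7 kb downstream of the 5′ end, beyond the gene, with a fold enrichment of 6.27. Adora2a, at chr10:75316877-75334784 on the plus strand, had its nearest summit 65.9 kb upstream (fold enrichment 5.45) and the next 132 kb downstream (5.95). The nearest summit to Drd5, at chr5:38319367-38322518 on the plus strand, was 124 kb upstream, with a fold enrichment of 5.92. A site closer to the 5′ end was found for 72.2% of protein-coding genes in the case of Drd3, for 70.1% in that of Adora2a and for 81.3% in that of Drd5. For comparison, this share was 19.7% for Drd1, 32.4% for Drd2, 12% for Drd4 and 25.1% for Adora1.

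Calls of low score had been removed from the list, and gaps in the numbering of the calls show how many were removed between neighbouring sites. Around Adora2a, 6 calls were missing from the 198 kb between the flanking sites, or 3.03 per 100 kb, beside 0.875 per 100 kb over all stretches between neighbouring sites. Around Drd5, 3 were missing from 366 kb (0.82 per 100 kb), and around Drd3, 0 were missing from 254 kb. Weak calls below the score threshold of 60 could therefore exist near Adora2a and Drd5, at positions that were not known, whereas the numbering left no room for one near Drd3. For Adora1 4 calls were missing from the 109 kb between its flanking sites (3.68 per 100 kb), for Drd1 and Drd2 1 each, and for Drd4 0.

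DR4 matches near the summit were found at 25.0% of the sites of the receptor genes (4 of 16, interval 7.27 to 52.4%) and at 13.1% of all sites. The interval treats the 16 sites as independent, although 3 of the 4 matches were at Adora1, and the difference was not tested. Counted over the whole site they were present at 5 of 16 (31.2%, 11 to 58.7%) and at 17.3% of all sites. The 4 sites with a match near the summit had fold enrichments of 6.25 at Drd1 and 11.9, 7.44 and 7.47 at Adora1, and thus did not include any of the 3 sites with the highest values. DR4 matches also occurred around the genes without a site. Drd3, Drd5 and Adora2a had 11, 8 and 8 matches in the stretches searched (11.1, 13.3 and 13.3 per 100 kb). As these stretches held no site, none of the matches could lie in one. Drd1, Drd2, Drd4 and Adora1 had 9, 11, 5 and 10 (15, 11.3, 8.33 and 15.1 per 100 kb), of which 1, 0, 0 and 4 lay in a site. A match is a description of the sequence and not evidence of binding.

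Of 8 short motifs searched without mismatch on both strands within 100 bp of the summit, 4 were found. The single half-site AGGTCA was present at 3 of the 16 sites, the Drd1 site at 9.03 kb and the Adora1 sites at 5.94 kb upstream and 1.71 kb downstream, and at 17.8% of all sites. The AP-1 motif TGANTCA and the GC box GGGGCGGGG were both present at the Drd2 site at 45.8 kb, and at 11.5% and 4.35% of all sites. The E-box CACGTG was present at the Drd1 site next to the 5′ end and at 4.68% of all sites. The cyclic AMP response element TGACGTCA, the extended half-site AAAGGTCA (which contains AGGTCA), the EGR motif GCGGGGGCG (which can overlap the GC box) and the forkhead motif TGTTTAC were at none of the 16 sites and at 0.542%, 1.15%, 1.31% and 1.23% of all sites. The content of G and C within 100 bp of the summit had a median of 50.0% at the 16 sites (range 35.8 to 71.6%), beside 50.7% over all sites.

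In other receptor families that act through G proteins, sites were again uneven among members. Of the 11 opioid, cannabinoid and muscarinic receptor genes, 7 had a site (63.6%), beside 57.7% of protein-coding genes. They held 30 sites in all, with a median fold enrichment of 6.3. Chrm4, which encodes the M4 muscarinic receptor of direct pathway neurons, had 9 sites, Chrm3 7 and Chrm1 4, and the highest fold enrichments were 26.5 at Chrm3, 26.0 at Oprd1 and 16.1 at Cnr1. Of the 8 metabotropic glutamate receptor genes, 7 had a site (87.5%), with 35 sites and a median fold enrichment of 7.44. Among them were Grm7 with 8 sites and Grm5 with 7, and fold enrichments reached 32 at Grm8 and 30.1 at Grm2. A DR4 match near the summit was present at 3 of the 30 and 5 of the 35 sites, beside 4 of the 16 at the dopamine and adenosine receptors. Per 100 kb searched, the dopamine and adenosine receptors held 3.18 sites, the opioid, cannabinoid and muscarinic receptors 2.03 and the metabotropic glutamate receptors 1.04. The stretches searched became longer in the same order, 503, 1479 and 3368 kb in total. Per gene the order was reversed, with medians of 1, 2 and 3.5 sites. The transduction genes described below held 6.13 sites per 100 kb. Within these receptor families, Chrm4 alone was denser in sites than Adora1. Some of the transduction genes, among them Gng7 and Adcy5, were also denser than Adora1. None of these differences was tested.

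The genes of dopamine and adenosine metabolism, the other adenosine receptors and the genes of signal transduction held sites at 26 of 34 (76.5%), beside 57.7% of protein-coding genes. Of the genes of dopamine synthesis and transport, which act mostly in midbrain neurons, Ddc, the decarboxylase that forms dopamine, had 2 sites of up to 15-fold, Th, the rate-limiting enzyme, had 1 of 5.58-fold, and the transporters Slc6a3 and Slc18a2 had 0. Of the monoamine oxidase genes, whose products break down dopamine, Maoa had 1 site of 5.58-fold and Maob had 0. Genes of adenosine formation, uptake and breakdown had a site at 5 of 7, among them adenosine kinase Adk (5 sites, up to 29.7-fold), the ectonucleotidases Entpd1 (5, 23.4) and Nt5e (2, 28.7) and the transporter Slc29a1 (4, 23.9). Of the other adenosine receptors, Adora3 had 1 site of 5.24-fold and Adora2b had 0.

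Of the transduction genes of the projection neurons, 16 of 18 had a site (88.9%), beside 57.7% of protein-coding genes. Their 137 sites had a median fold enrichment of 8.18, equal to that of the 16 receptor sites, and reached higher maxima. Pde10a, the phosphodiesterase that ends cyclic nucleotide signals, had 29 sites of up to 96.3-fold. The stretch searched for Pde10a was 491 kb long, so it held 5.9 sites per 100 kb, beside 6.67 at Drd1 and 10.6 at Adora1. Adcy5, the main striatal adenylyl cyclase, and Gng7, the G protein γ subunit that works with it, had 21 sites each (11.6 and 21.8 per 100 kb). Rgs9, which shortens signals of inhibitory G proteins, had 8 sites of up to 90.4-fold, and Gnao1, the α subunit of Go, had 11 of up to 67.3-fold. The α subunit genes Gnas and Gnai1 had no site, and they are named here after their values were seen. Gpr52 was not analysed here. The highest fold enrichment of a receptor site, 20.8 at Drd2, was thus lower than the strongest sites of Pde10a, Rgs9, Gnao1, Adk and Slc29a1, among others. This compares single values without a replicate check, between genes with unlike numbers of sites.

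**Figure D4:**
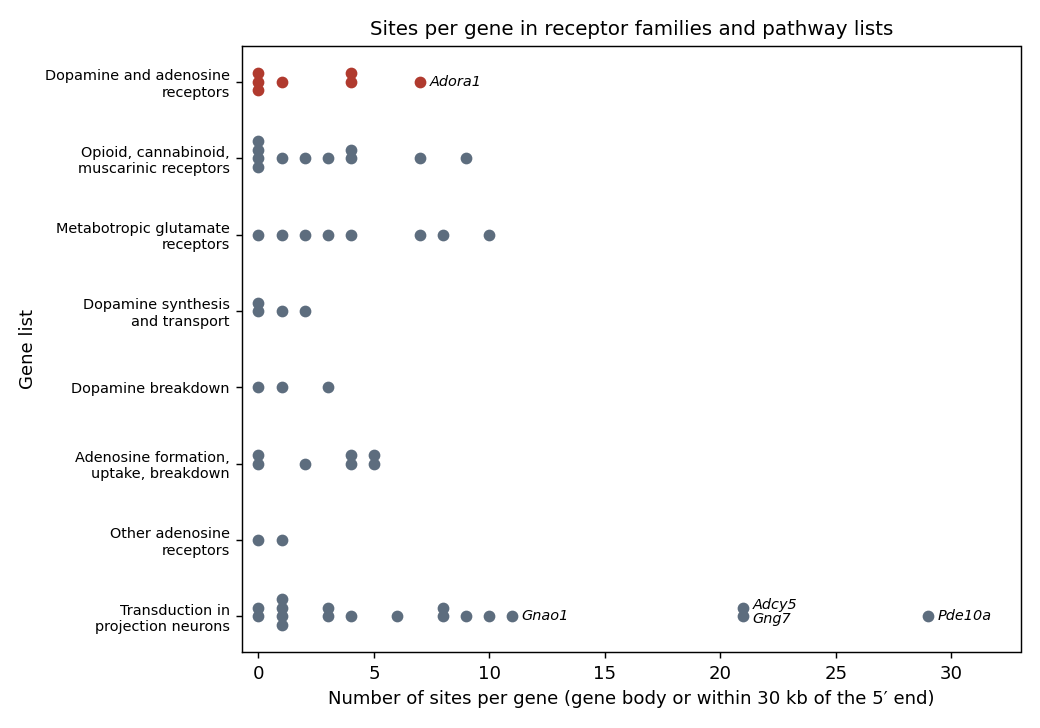
Number of sites per gene (horizontal axis) for each gene of the receptor families and pathway lists (rows, one point per gene, spread vertically where points coincide). Red points are the 7 dopamine and adenosine receptor genes, with 7 sites at most, and the transduction list reaches 29 sites at Pde10a. The counts are not divided by the length of the stretch searched, which differs between genes.

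The genes whose sites were most like those of a receptor gene were sought among genes with the same number of sites, by the root mean square difference of their sorted log2 fold enrichments. For Drd1 these were Zfp219 (0.0848) and Ablim3 (0.112), and for Drd2 the pair Cd164l2 and Gpr3 (0.0955 each), among 950 genes with 4 sites. For Adora1 they were Epb41l3 (0.116) and Sort1 (0.122), among 207 genes with 7 sites. These differences are on the log2 scale and describe the strengths of the sites alone. Whether Cd164l2 and Gpr3, which had equal values, share the same sites was not examined.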

How the data were processed

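TRα1 ChIP-seq was analysed from 1 list of sites, made from 2 ChIP libraries and 1 input library that were grouped by their titles. The labels give the age as a bare number, read as weeks from the methods of the study. The authors aligned the reads to GRCm38 and called peaks with MACS, and the methods state that peaks with a score below 60 were removed. The submitters' processing notes name Bowtie2 2.3.2.2 and MACS2 2.1.1.20160309.0. The treatment of duplicate reads and any pooling of the 2 ChIP libraries are not given in the sources used here, nor was library depth analysed here.

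Per site, the authors deposited the pileup (coverage signal of ChIP fragments over the summit) and the fold enrichment (ratio of the pileup to the background that MACS estimated, both raised by 1). The deposited −log10 q values and the score, 10 times −log10 q, were used to filter and describe sites. The local background was recomputed from pileup and fold enrichment.

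Sites were attributed to 21938 protein-coding genes of GENCODE, without the mitochondrial ones, and the bases were read from the RefSeq sequence of GRCm38 after its chromosome lengths were checked against the list. The promoters of RefSeq (GRCm38.p6) were matched for 6 of the 7 genes, and that of Adora2a was not used here. The DR4 and motif searches are described beside their results. Intervals were exact (Clopper-Pearson for shares, Poisson for pileups) at 95%. The numbers of the calls increased along each chromosome, so missing numbers could be placed between neighbouring sites.

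The members and lists were chosen with earlier results of these data known. The genes named beside the 7 members were the 3 with the most sites and the 3 with the highest fold enrichment in each list, genes with a 5′ end nearer to a site of a member, and the 2 genes most like each member with at least 2 sites, and some genes that this rule names are not reported here. The genes nearest to sites outside the distance used, and genes of small lists without a site, were named after their values were seen. Alternatives were distances of 10 and 100 kb, a score of at least 200, any base of the site instead of the summit, no gene body, every transcript start, the gene with the nearest 5′ end only, 1 or 3 mismatches in the DR4, and the DR4 in the whole site. The software was pysam 0.24.0, scipy 1.17.1, numpy 2.4.6, matplotlib 3.10.9, pandas 2.3.3 and Python 3.11.15, and the assignment and DR4 search were tested on simulated data.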

Additional observations from a re-analysis of the deposited data

How the results depend on the processing

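The list held no values for single libraries, so that no library could be left out and no spread between replicates was available, and no paired analysis was possible because the list has no values for single libraries. Of 35 values computed for the main counts and shares under 10 alternatives, 27 stayed within 1.5 times of the reported value. Of 49 values for the number of sites at single genes, 37 did. These include Drd3, Drd5 and Adora2a, whose count of 0 could not change under the settings that only remove sites. The 4 sites of Drd1 became 2 within 10 kb, and the 4 of Drd2 became 2 without the gene body and 2 by the nearest 5′ end. Within 100 kb of the 5′ ends the 7 genes had 36 sites, 6 of 7 genes had a site, beside 78.7% of protein-coding genes, and Drd3 and Adora2a gained 1 each, whereas Drd5 had 0. A score of at least 200 left 6 sites (3 at Drd1, 1 at Drd2, 2 at Adora1) at 3 genes, with a median fold enrichment of 15.2, 1 site with a DR4 match (beside 16.3% of all sites of that score) and 30.6% of protein-coding genes with a site. With at most 1 mismatch, 0 of the 16 sites and 3.11% of all sites had a DR4 match, and with at most 3 mismatches 6 of the 16 and 38.2% of all sites had one. Attribution to the gene with the nearest 5′ end only gave 12 sites, at the 4 genes, and 39.8% of protein-coding genes with a site. Weak sites of 14 to 22 fragments are limited by counting error, and their order was not resolved.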
